A study of Rattus norvegicus with 25 samples.

Results

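The miRNAs described are the mature products of 8 X-linked hairpins that are best known from the testis, miR-463, miR-465, miR-741, miR-743a, miR-743b, miR-871, miR-880 and miR-881. For these hairpins every row of the miRNA count matrix was taken by name, and this gave 16 of 562 mature miRNAs, both arms of each hairpin. They were followed in mature sperm of Sprague-Dawley rats, taken from the cauda epididymis and purified by a double swim-up, with 1 small RNA library per male. Each male (F0 generation) had pressed a lever for intravenous morphine, at 0.75 mg/kg per infusion, or for saline, during 3-h sessions held daily for 60 days. Sperm was collected at the end of self-administration in 7 saline males (F0_SAL) and 7 morphine males (F0_MOR), or after a further 90 days of abstinence in 5 saline males (F0_ABS-SAL) and 6 morphine males (F0_ABS-MOR). Abstinent males were therefore older as well as further from catheter sessions and behavioural testing, and these differences cannot be told apart. The libraries carry letters and short codes instead of the group names, and the codes were matched to the abstinent and nonabstinent groups by the number of libraries in each.

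A miRNA hairpin is cut into a 5p and a 3p arm, and an arm loaded into an Argonaute protein pairs with target transcripts mainly through its seed, bases 2 to 8. The cluster belongs to the fast-evolving X-linked miR-506 family, whose members are made in spermatogenic cells of the testis and include several that remain expressed while most of the X chromosome is silenced in meiosis. Mature sperm transcribe little or nothing, so that the miRNAs counted in them were made earlier in spermatogenesis or were taken up during passage through the epididymis.

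Sequences of 15 of the 16 members were found in RefSeq for the rat assembly GRCr8. They are 21 to 24 bases long and had 14 distinct seeds. The 6 most abundant members are shown with the seed in capitals, so that the likeness of miR-743a and miR-743b can be seen arm by arm.
rno-miR-741-3p: aAAGAUGCcacgcuauguagau
rno-miR-743a-3p: gAAAGACGccaaacuggguaga
rno-miR-743b-3p: gAAAGACAccauacugaauaga
rno-miR-881-3p: uAACUGUGgcauuucugaauag
rno-miR-743a-5p: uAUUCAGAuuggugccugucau
rno-miR-743b-5p: uGUUCAGAcugguguccaucau
Both arms of miR-871 are shown next, since its 5p arm had the only seed that 2 members of the cluster shared, AUUCAGA, and miR-880-3p and miR-463-5p are added because their values are also described.
rno-miR-871-5p: uAUUCAGAuuggugccggucacau
rno-miR-871-3p: uGACUGGCaccauacuggauaa
rno-miR-880-3p: uACUCCAUucauucugaguaga
rno-miR-463-5p: uACCUAAUuuguuguccauca
The 5p arms of miR-743a and miR-871 shared the 16-base run uauucagauuggugcc and differed at 4 positions. The 3p arms of miR-743a and miR-743b also differed at 4 positions and had seeds that were not the same. These counts include unpaired end bases as well as changed bases, and by them a member was never closer than 4 differences to another rat miRNA of the table. The 4 differences between the 5p arms of miR-743a and miR-871 include such end bases. The alignment allowed 1 mismatch and kept reads from 15 bases, so a short read within their 16-base run fits both arms. How many reads did so was not tested. The seed of rno-miR-741-5p, a member that was barely detected, was shared with rno-miR-376c-3p from outside the cluster.

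In the GRCr8 annotation all 8 hairpins lie on chromosome X and on the minus strand. Mir743a and Mir743b are direct neighbours at one end, followed by Mir742, Mir883, Mir471 and Mir3551, which are not members. Mir741 and Mir463 come next and are neighbours of each other. Mir880, Mir878, Mir881, Mir871, Mir3580 and Mir465 close the row in this order, with Mir878 and Mir3580 not members. Apart from miRNA genes, only pseudogenes and lncRNAs are annotated among and beside them.

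Between 1032386 and 3203211 reads per library had been counted on mature miRNAs. The leading miRNA of the series, rno-miR-34c-5p, is a known miRNA of late germ cells and sperm, and its median share of miRNA counts was 45.4% in F0_SAL and 41.1% in F0_MOR, against 36.3% (F0_ABS-SAL) and 36.8% (F0_ABS-MOR) after abstinence. Of the 6 sperm and late germ cell markers, rno-miR-449c-5p was at 0 in 24 of 25 libraries. Levels of members are given in CPM, counts scaled to a common library total, after TMM scaling, a library correction that assumes most miRNAs are unchanged. The correction factors ran from 0.701 to 0.966 in F0_SAL and from 1.02 to 1.21 in F0_ABS-SAL, and libraries O, V and W of F0_SAL were below 0.8. The choice of scaling moved comparisons, those with F0_SAL among them, and other scalings are given beside the results that they change. The part of the large share of rno-miR-34c-5p in this was not tested. In whole-sperm RNA, fewer cells of a type and less RNA per cell cannot be told apart.

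The cluster was a minor part of sperm miRNA, and its share overlapped between the 4 groups. Its 16 members together held 3.40% ± 0.775 (SD, n = 7) of miRNA counts in F0_SAL and 3.31% ± 0.634 (n = 7) in F0_MOR. The share was 3.06% ± 0.675 (n = 5) in F0_ABS-SAL libraries and 3.26% ± 0.763 (n = 6) in those of F0_ABS-MOR. The lowest library stood at 2.29% and the highest at 4.45%, both in F0_SAL, so that the other groups lay within the range of this one. With rno-miR-34c-5p left out of the total, the means were 5.97% ± 0.986 (F0_SAL), 5.42% ± 0.953 (F0_MOR), 4.63% ± 0.960 (F0_ABS-SAL) and 4.92% ± 0.601 (F0_ABS-MOR), and the groups still overlapped. In CPM after TMM scaling the summed members had medians that ran from 36870 (F0_SAL) through 32400 (F0_MOR) and 29360 (F0_ABS-MOR) to 25580 (F0_ABS-SAL), a wider spread of medians than that of the plain shares.

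One arm led the cluster. rno-miR-741-3p averaged 10650 CPM over the 25 libraries, the 17th highest of all miRNAs, and was a median 31.8% of the cluster's counts, from 25.5% to 36.6%. The 2 arms of miR-743b followed at 4924 (5p) and 4908 CPM (3p), then rno-miR-881-3p at 4448, rno-miR-743a-3p at 2632 and rno-miR-743a-5p at 2295. The ranges over libraries of neighbours in this order overlapped, and the 2 arms of miR-743b were level. The 8 other members that passed the filter on low counts averaged from 977 CPM (rno-miR-463-5p) down to 32.4 CPM (rno-miR-881-5p). rno-miR-741-5p was at 0 in 20 of 25 libraries with a highest count of 7, and rno-miR-880-5p was at 0 in 24 with a highest count of 2. These 2 members were not tested, and 14 of the 16 were.

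**Figure D1:**
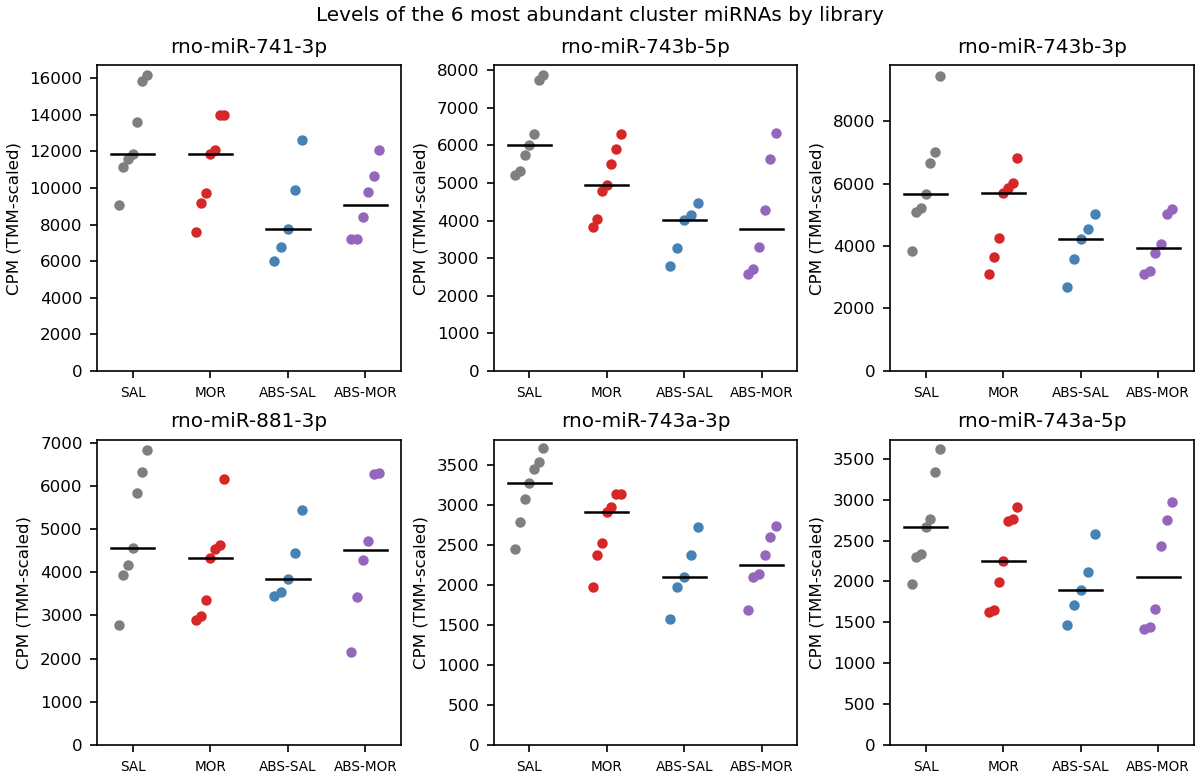
Level of the 6 most abundant members in each library, in CPM after TMM scaling, with the 4 groups on the horizontal axis (F0_ left off), 1 point per male and a line at the group median. For rno-miR-743b-5p every F0_ABS-SAL library lies below every F0_SAL library, while the other panels show overlapping groups.

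Morphine against saline at the end of self-administration asks whether the drug itself went along with a change in the cluster. No member was called differentially expressed, and the side of 0 on which most members lay turned with the scaling. A call needed a Benjamini-Hochberg adjusted p under 0.1 from edgeR's quasi-likelihood test over all 317 miRNAs tested and an absolute log2 fold change above 0.58. By this rule 0 of 14 members were called, and 0% of all tested miRNAs (percentage called in either direction). The log2 fold changes of members had a median of -0.21 beside 0.06 over all miRNAs, with 11 of 14 negative. With plain totals of miRNA counts 8 of 14 were negative (median -0.02), with TMM over miRNAs and ncRNAs joined 14 of 14 (median -0.35), and scaled to rno-miR-34c-5p 2 of 14 (median 0.11). At an unadjusted p under 0.05 there were 1 member and 23 miRNAs in all, and DESeq2 and limma-voom also called 0 members.

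For rno-miR-741-3p the libraries of F0_SAL ran from 9062 through a median of 11860 to 16200 CPM, and those of F0_MOR from 7619 through 11860 to 14000. The ranges overlapped, and the log2 fold change was -0.19 (95% interval -0.54 to 0.17). rno-miR-743b-5p ran from 5218 through 6012 to 7870 CPM in F0_SAL and from 3830 through 4949 to 6293 in F0_MOR. Its log2 fold change was -0.32 (95% interval -0.69 to 0.04), the second lowest among the members. rno-miR-743b-3p had medians of 5657 and 5708 CPM in F0_SAL and F0_MOR, rno-miR-881-3p of 4556 and 4319, rno-miR-743a-3p of 3283 and 2917, and rno-miR-743a-5p of 2670 and 2255. Their log2 fold changes were between -0.28 and -0.23, with every interval including 0.

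The lowest value belonged to a rare member. rno-miR-880-3p ran from 65.2 through 111 to 164 CPM in F0_SAL and from 43.9 through 77.0 to 95.6 in F0_MOR. Its log2 fold change was -0.58 (SE 0.24), with an adjusted p of 0.547 in edgeR, and the groups overlapped. This is the member below 0.05 before adjustment.

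After 90 days of abstinence no member was called between morphine and saline males either. Between F0_ABS-MOR and F0_ABS-SAL, 0 of 14 members were called, and 0% of all tested miRNAs. The median log2 fold change was 0.09 for members and -0.01 for all miRNAs, and 9 of 14 members were above 0. No member and 4 of the 317 miRNAs had an unadjusted p under 0.05 in edgeR, and DESeq2 and limma-voom called 0 members. For rno-miR-741-3p the 5 F0_ABS-SAL libraries stood at 12620, 7771, 6764, 5993 and 9911 CPM, and the F0_ABS-MOR libraries ran from 7213 through 9082 to 12060. Its log2 fold change was 0.10, with a 95% interval from -0.30 to 0.50. rno-miR-743b-5p, rno-miR-743b-3p, rno-miR-881-3p, rno-miR-743a-3p and rno-miR-743a-5p had log2 fold changes between 0.02 and 0.15 and overlapped in their libraries. The widest of these 5 intervals, that of rno-miR-881-3p, ran from -0.36 to 0.62. The highest value was that of rno-miR-881-5p, the rarest member tested, at 0.42 (95% interval -0.24 to 1.08).

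Whether the morphine difference itself changed with abstinence was put to an interaction test, on the log2 fold change of F0_MOR over F0_SAL minus that of F0_ABS-MOR over F0_ABS-SAL. Again 0 of 14 members were called, and 0% of all tested miRNAs, with 1 member and 10 miRNAs at an unadjusted p under 0.05 in edgeR and 0 members called by DESeq2 and limma-voom. The difference was -0.75 (SE 0.36) for rno-miR-880-3p, with an adjusted p of 0.953, and -0.47 (SE 0.28) for rno-miR-743b-5p, also with an adjusted p of 0.953.

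Abstinent against nonabstinent saline males is a comparison of collection timepoints without the drug. Both arms of miR-743b fell, by 0.76 (5p) and 0.61 (3p) on the log2 scale, and miR-741-3p and both arms of miR-743a were lower by smaller amounts. The 4 arms of miR-463 and miR-465 stood between -0.16 and 0.00. In edgeR 2 of 14 members were called, both lower in F0_ABS-SAL, beside 10.7% of all tested miRNAs called lower, a share near that of the members. No member was called higher, beside 22.4% of all tested miRNAs, and 33.1% of these were called in either direction. By adjusted p alone, at any fold change, 5 of 14 members were lower, beside 16.1% of all tested miRNAs. The median log2 fold change of members was -0.29 beside 0.00 over all miRNAs, and 13 of 14 were negative.

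rno-miR-743b-5p carried the clearest difference. Its 5 F0_ABS-SAL libraries stood at 4472, 3269, 2794, 4004 and 4141 CPM, and the 7 F0_SAL libraries ran from 5218 through 6012 to 7870. All libraries of one group were below all of the other, which held for 1 of the 14 members in this comparison, beside 2.21% of all tested miRNAs in this direction and 4.73% in the other. It held for 0 members in the other 3 pairwise comparisons, beside 1.58% of all tested miRNAs lower and 1.89% higher in F0_ABS-MOR against F0_MOR and 0% in both comparisons of morphine with saline. By plain share of miRNA counts 0 of the 317 miRNAs were lower without overlap, and for rno-miR-743b-5p library E of F0_ABS-SAL (0.521%) was then above libraries O, V and H of F0_SAL (0.414% to 0.493%). The log2 fold change was -0.76 (SE 0.21), with an adjusted p of 0.00957 in edgeR. It was called in every single-library omission, with log2 fold changes from -0.91 to -0.70.

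rno-miR-743b-3p, from the other arm of the same hairpin, stood at 5027, 4218, 3576, 2675 and 4531 CPM in F0_ABS-SAL and ran from 3847 through 5657 to 9450 in F0_SAL. The groups overlapped, with 2 F0_ABS-SAL libraries below the lowest F0_SAL library. Its log2 fold change was -0.61 (SE 0.22), with an adjusted p of 0.0386 in edgeR. The call was lost without library H of F0_SAL or library R of F0_ABS-SAL, with log2 fold changes of -0.53 to -0.52 and adjusted p-values of 0.0572 to 0.104. It was also lost with limma-voom (-0.48, adjusted p 0.0716) and with at least 10 counts in every library (-0.52, adjusted p 0.0491 in edgeR).

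A pair of members fell just short of the fold change threshold. rno-miR-741-3p, at 12620, 7771, 6764, 5993 and 9911 CPM in F0_ABS-SAL against 9062 to 16200 in F0_SAL, had a log2 fold change of -0.57 (SE 0.20) and an adjusted p of 0.0369 in edgeR. rno-miR-743a-3p stood at 2734, 2375, 1976, 1583 and 2098 CPM in F0_ABS-SAL and ran from 2457 through 3283 to 3716 in F0_SAL. Its log2 fold change was also -0.57 (SE 0.17), with an adjusted p of 0.0152. In each case 19 of the 25 single-library omissions brought the value past the threshold, and DESeq2 called both, so that the count of 2 depended on the exact threshold. Without libraries O, V and W, 4 members were called lower, these 2 and both arms of miR-743b, beside 32 of all miRNAs tested in that fit.

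The remaining members lay nearer to 0. rno-miR-743a-5p stood at 2580, 1710, 1469, 1891 and 2111 CPM in F0_ABS-SAL against 1969 to 3624 in F0_SAL, with a log2 fold change of -0.47 (SE 0.22) and an adjusted p of 0.0907. rno-miR-881-3p stood at 5434, 3440, 3553, 4450 and 3835 CPM against 2778 to 6836, with a log2 fold change of -0.25 and a 95% interval from -0.72 to 0.23. rno-miR-463-5p was level at 0.00 (95% interval -0.41 to 0.41), and rno-miR-871-3p was at -0.39 (95% interval -0.85 to 0.06). Library E was the highest F0_ABS-SAL library for each of the 6 most abundant members. Without it 5 members were called, in a fit whose count over all miRNAs is not given here.

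**Figure D2:**
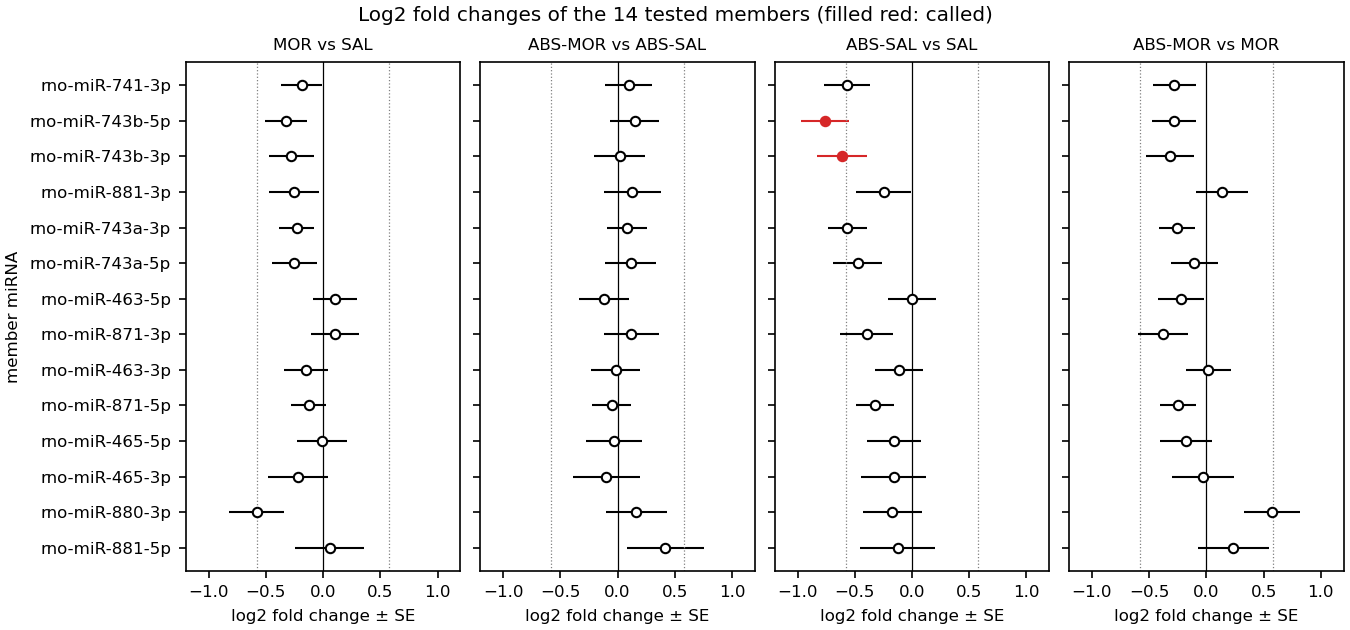
Log2 fold change with its standard error (horizontal axis) of the 14 tested members, ordered by level, in the 4 pairwise comparisons (F0_ left off). Red filled points mark the 2 called members, both arms of miR-743b in ABS-SAL vs SAL, and dotted lines mark the fold change threshold of 0.58.

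The scaling of the libraries set the sign of this comparison. With plain totals of miRNA counts the median of all miRNAs moved up by 0.39, 0 members were called, and the calls over all miRNAs went from 71 higher and 34 lower to 110 higher and 1 lower. rno-miR-743b-5p was then at -0.40 and rno-miR-743b-3p at -0.24, with adjusted p-values of 0.166 and 0.479 in edgeR. Scaled to rno-miR-34c-5p, the median of all miRNAs moved up by 0.74, and 151 of all 317 tested miRNAs were called higher. Among these were 2 other members, rno-miR-463-5p and rno-miR-463-3p, at 0.74 and 0.63. A scaling shifts all miRNAs of a library alike, so that the distance between members and all miRNAs changed little. Over the 5 scalings the median of members stayed between 0.28 and 0.32 log2 units below that of all miRNAs, and it was 0.43 below without libraries O, V and W. As a share of total miRNA counts, without any further scaling, members had a median log2 fold change of 0.07.

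**Figure D3:**
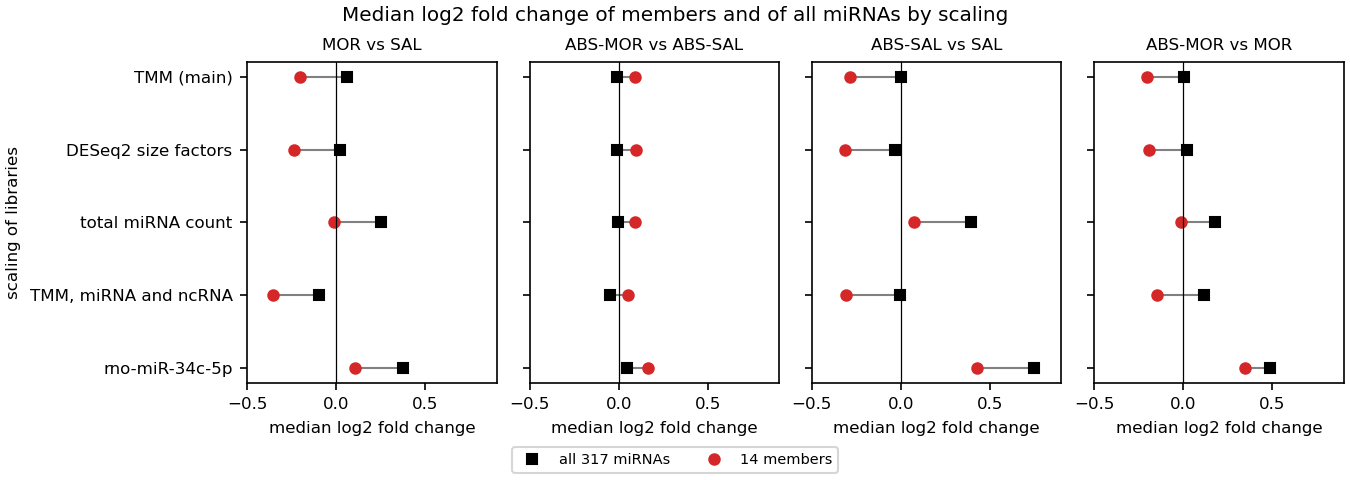
Median log2 fold change (horizontal axis) of the 14 tested members (circles) and of all 317 tested miRNAs (squares) under 5 ways of scaling the libraries, for the 4 pairwise comparisons (F0_ left off). Both medians shift together with the scaling, from -0.29 and 0.00 to 0.43 and 0.75 in ABS-SAL vs SAL, while the circle stays to the left of the square there.

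After TMM scaling, sperm markers and markers of other cells also moved between F0_SAL and F0_ABS-SAL. Of the 5 tested sperm and late germ cell miRNAs, 4 fell, with log2 fold changes of -0.69 for rno-miR-34b-3p, -0.77 for rno-miR-34c-5p, -0.64 for rno-miR-34c-3p and -0.64 for rno-miR-34b-5p. With plain totals of miRNA counts 1 of all 317 tested miRNAs was called lower, so at most 1 of these 4 calls stayed. Their summed level was 396600 to 742700 CPM in F0_SAL and 270700 to 394300 in F0_ABS-SAL, ranges that did not overlap after TMM scaling. By plain share of miRNA counts 0 of the 317 tested miRNAs, these markers included, were lower in F0_ABS-SAL without overlap. The libraries of rno-miR-34c-5p, the leading miRNA of the series, overlapped between the groups on that scale. Of 6 miRNAs of the epididymal epithelium 4 rose, led by rno-miR-205 at 1.73, with summed levels of 6417 to 10610 CPM in F0_SAL and 8538 to 18840 in F0_ABS-SAL. Of 4 tested muscle miRNAs 3 rose, among them rno-miR-145-5p at 1.77, with sums of 13600 to 16720 against 17550 to 81490 CPM, while the muscle marker rno-miR-133b-3p was at 0 in 21 of 25 libraries. Both endothelial miRNAs rose, rno-miR-126a-3p by 1.25 and rno-miR-126a-5p by 1.54, with sums of 546 to 783 against 708 to 2821 CPM. Of 6 leukocyte miRNAs 1 rose, rno-miR-146a-5p at 0.73, with sums of 1153 to 2250 against 1939 to 2698 CPM, and 0 of 3 erythroid miRNAs were called, with sums of 929 to 2741 against 655 to 1256 CPM. The part of these cells in the lower levels of the cluster was not tested.

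In morphine males the same step of abstinence gave 0 called members of 14 (F0_ABS-MOR vs F0_MOR), beside 21.1% of all tested miRNAs called in either direction, 11% higher and 10.1% lower. The median log2 fold change of members was -0.20 beside 0.00 over all miRNAs, with 10 of 14 negative. With plain totals 7 of 14 were negative (median -0.01), and scaled to rno-miR-34c-5p 0 of 14 (median 0.35). At an unadjusted p under 0.05 there were 1 member and 103 miRNAs in edgeR, and DESeq2 and limma-voom called 0 members. rno-miR-741-3p went from a median of 11860 to 9082 CPM, with a log2 fold change of -0.28 (95% interval -0.65 to 0.09). rno-miR-743b-5p ran from 2589 through 3784 to 6336 CPM in F0_ABS-MOR and had a log2 fold change of -0.28 (95% interval -0.67 to 0.10). The values for rno-miR-743b-3p and rno-miR-743a-3p were -0.32 and -0.26. The timepoint difference in saline males minus that in morphine males is the interaction already given, in which no member was called.

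rno-miR-880-3p went the other way. It ran from 43.9 through 77.0 to 95.6 CPM in F0_MOR and from 69.9 through 96.1 to 155 in F0_ABS-MOR, with overlapping libraries. The log2 fold change was 0.57 (SE 0.25), with an adjusted p of 0.102 in edgeR, just outside both criteria. It was called higher in 6 of the alternatives, at 0.61 to 0.97, among them with plain totals (0.75) and without libraries O, V and W (0.61), and without library H, P, Q or X. With plain totals 57 of all 317 tested miRNAs were called higher, and scaled to rno-miR-34c-5p 81 were. The median of all miRNAs then moved up by 0.18 and 0.48. Without libraries O, V and W 42 of the miRNAs tested in that fit were called higher. In the same comparison after TMM scaling 1 sperm marker fell, and 2 epithelial, 1 muscle and both endothelial markers rose. Of the leukocyte markers 1 rose and 1 fell, and all 3 tested erythroid markers fell. The summed erythroid miRNAs were at 948 to 2372 CPM in F0_MOR and 308 to 1292 in F0_ABS-MOR, and the part of these cells in the values of the cluster was not tested. In the 2 comparisons of morphine with saline edgeR and DESeq2 called no marker of any list, while limma-voom called 1, the leukocyte marker rno-miR-150-5p, in F0_MOR against F0_SAL. Its log2 fold change was 1.07 (SE 0.22, adjusted p 0.0127) in limma-voom, 0.92 (SE 0.26, adjusted p 0.311) in edgeR and 0.92 (adjusted p 0.114) in DESeq2.

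X-linked relatives outside the cluster did not share one direction. Of 19 names listed 17 were in the matrix and 16 were tested, and in F0_ABS-SAL against F0_SAL 6 were called higher and 1 lower. The higher ones were rno-miR-547-3p (1.53), rno-miR-547-5p (1.42), rno-miR-3585-5p (1.35), rno-miR-509-3p (0.97), rno-miR-3585-3p (0.93) and rno-miR-201-5p (0.89), whose genes lie outside the stretch that holds the members. The lower one was rno-miR-3580-3p at -0.82 (SE 0.26, adjusted p 0.0226 in edgeR), from a hairpin between Mir871 and Mir465. In F0_ABS-MOR against F0_MOR 3 were called higher, rno-miR-547-3p (1.56), rno-miR-547-5p (2.03) and rno-miR-3585-5p (1.12). In edgeR none was called in either comparison of morphine with saline.

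The same rno-miR-3580-3p had the pattern most like the cluster. Over the 25 libraries, with group means removed, the Spearman correlation of its log2 CPM with that of the summed members was 0.928. rno-miR-191a-3p (0.865), rno-miR-146b-5p (0.843), rno-miR-340-3p and rno-miR-501-3p (both 0.794) followed, and these 4 are not part of the X-linked stretch described. The median over all 303 other tested miRNAs was -0.05, and rno-miR-34c-5p was at -0.29, rank 224 of 303. These correlations share libraries, depth and scaling and are given as a description.

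Within the cluster 5p arms of different hairpins varied together more than the 2 arms of 1 hairpin did, while 3p arms were mixed. The 5p arms of miR-743a and miR-743b had a correlation of 0.954 over the 25 libraries and their 3p arms one of 0.644, while the 2 arms of miR-743a had 0.112 and those of miR-743b 0.285. Pairs of 5p arms from different hairpins had a median of 0.529 (15 pairs, 0.182 to 0.954) and pairs of 3p arms one of 0.248 (28 pairs, -0.364 to 0.81). The median was 0.188 for both arms of 1 hairpin (6 pairs, -0.458 to 0.315) and 0.12 for opposite arms of different hairpins (42 pairs). rno-miR-741-3p, rno-miR-743b-3p and rno-miR-881-3p formed the tightest set of 3p arms, with 0.81, 0.733 and 0.659 between them. With the sum of the other members, which the abundant ones dominate, rno-miR-741-3p was at 0.861, rno-miR-463-3p and rno-miR-465-3p at -0.0746 and -0.00154, rno-miR-880-3p at 0.182 and rno-miR-463-5p at 0.16. With single members rno-miR-463-3p and rno-miR-465-3p were at 0.727 with each other, at 0.516 and 0.472 with rno-miR-743a-3p and at 0.525 and 0.582 with rno-miR-880-3p.

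**Figure D4:**
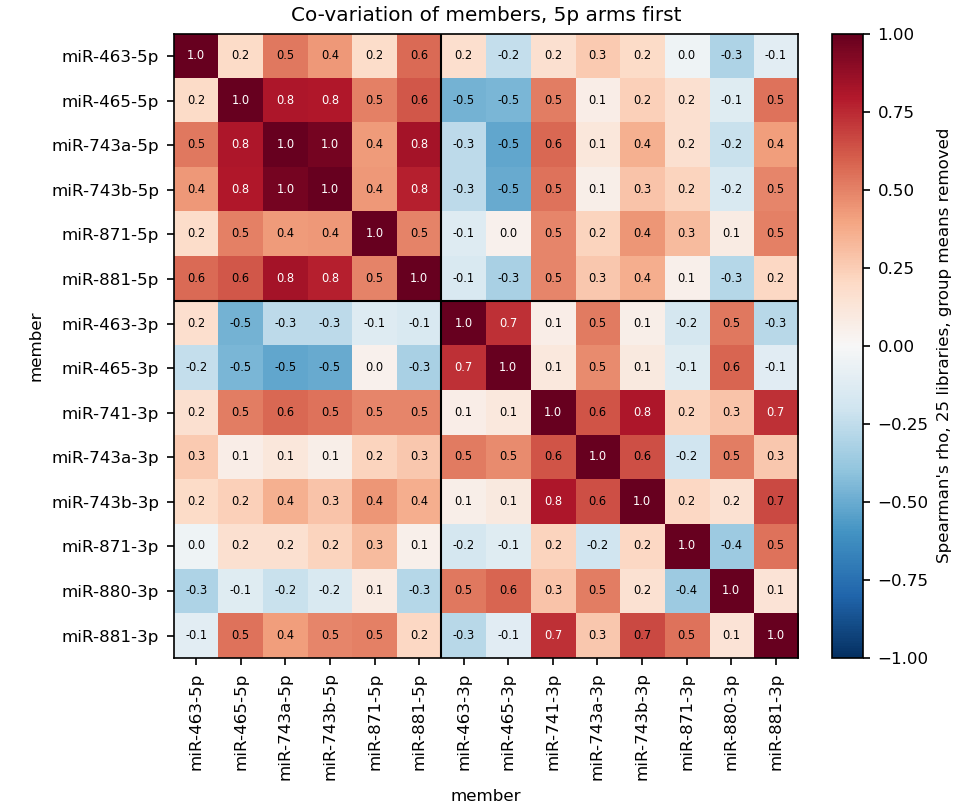
Spearman correlation of log2 CPM between the 14 tested members over 25 libraries with group means removed (colour and number), 5p arms first and 3p arms after the black lines. The block of 5p arms is positive throughout, from 0.182 to 0.954, while the lowest values, down to -0.522, pair a 5p arm with a 3p arm.

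Arm use differed strongly between hairpins. miR-741 and miR-880 were counted almost only as 3p, with 18 counts of 5p against 493023 of 3p for miR-741 and 2 against 4850 for miR-880 over all libraries. miR-881 had a median 5p share of 0.792%. The arms of miR-743a and miR-743b were nearly balanced, with median 5p shares of 46.8% and 47.9%, miR-871 leaned to 3p at 40.7%, and miR-463 and miR-465 leaned to 5p at 67.5% and 77.9%. Ligation and amplification differ between sequences, so that a share within a hairpin can be compared between libraries more safely than between hairpins.

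The 5p share varied widely between libraries, within groups as well. For miR-743a it ran from 34.2% in library I to 62.0% in library Q, both of F0_ABS-MOR, and group medians lay between 43.6% and 48.6%. Library T of F0_MOR was the second highest for miR-743a (58.2%) and the highest for miR-743b (65.5%), and libraries Q and T led miR-465 at 92.0% and 91.5%. Between hairpins the 5p shares, with group means removed, had Spearman correlations of 0.83 for miR-743a with miR-465, 0.775 for miR-743a with miR-743b and 0.759 for miR-463 with miR-465. miR-871 stood outside this pattern, at -0.02 with miR-743a. With group means removed, the 5p share also went along with the share of rno-miR-34c-5p, at -0.723 for miR-465, -0.575 for miR-743a, -0.55 for miR-463, -0.377 for miR-743b and 0.446 for miR-871. Library Q had the lowest share of that miRNA in the series (19.6%). The part of that miRNA in the arm shares was not tested.

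**Figure D5:**
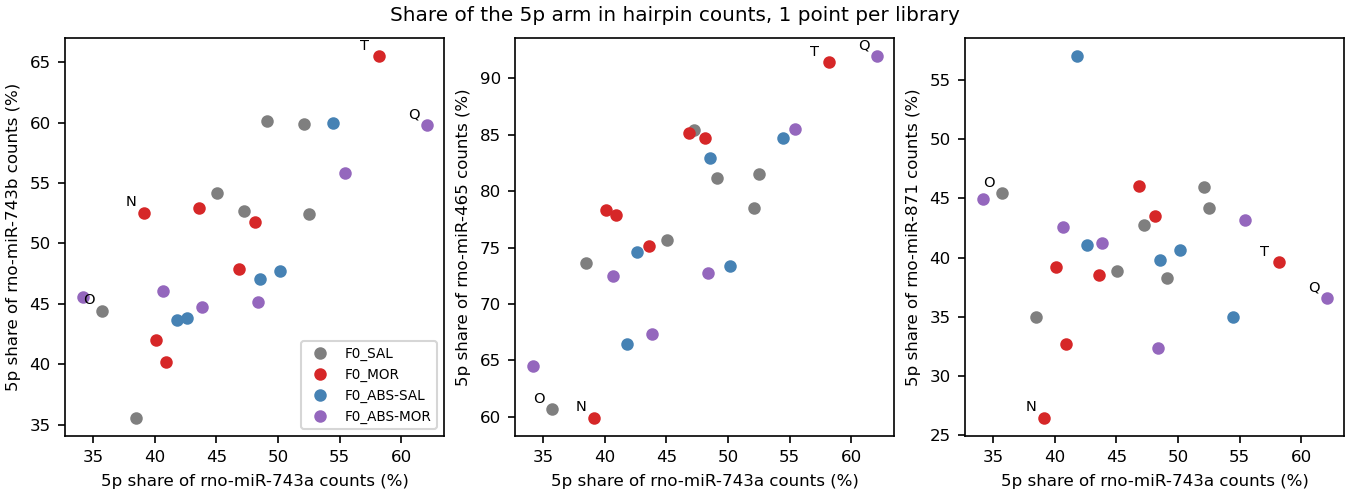
Share of the 5p arm in the counts of a hairpin, in percent, for miR-743a (horizontal axes) against miR-743b, miR-465 and miR-871 (vertical axes), 1 point per library, coloured by group, with libraries N, O, Q and T named. The shares of miR-743b and miR-465 rise with that of miR-743a, that of miR-871 does not, and the 4 groups are mixed. Points are the shares as counted, while the Spearman correlations (0.775, 0.83 and -0.02) were taken with group means removed.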

How the data were processed

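Small RNA libraries were made by the authors from sperm RNA of 25 males with the NEBNext kit, and the forward reads were processed with sRNAbench (mean quality of at least 20, length of at least 15, read number of at least 2, alignment to Rnor_6.0 with 1 mismatch allowed, then miRBase release 22 and Ensembl release 104 ncRNAs). The authors deposited raw read counts, not normalized, for 562 mature miRNAs and 3804 ncRNA transcripts. ncRNA counts served here only as a second basis for scaling. The smallest count above 0 was 2.

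Columns name a library letter, REG or TO, and SAL or MOR. No source used here expands REG and TO. They were matched to nonabstinent and abstinent groups by group size (7, 7, 5 and 6), and no library was given a replicate number. Each library is labelled a biological replicate. Which of the 2 sperm media a library came from is not given in the sources used here.

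The main test was the edgeR 4.0.16 quasi-likelihood test in R 4.3.3, with TMM scaling, edgeR's filter on low counts (317 miRNAs kept), 1 model of 4 groups and p-values adjusted over all 317. The study used DESeq2 with the same grouping and criteria. DESeq2 1.42.0 and limma 3.58.1 (voom with quality weights), 4 other scalings, other filters and thresholds, and omission of each library were run as alternatives. The omission of libraries O, V and W was chosen after seeing the data. Standard errors were the log2 fold change divided by the square root of F and are approximate, as are the 95% intervals built from them. log2 CPM used a prior count of 2. On simulated counts for F0_ABS-SAL against F0_SAL, 84% of miRNAs given a true log2 fold change of 1 were called. Of 310 tested there 195 had been changed, and 7 of the unchanged ones were called falsely. True changes smaller than 1, such as those estimated for the members, were not simulated.

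The set of hairpins and the marker lists were chosen with earlier results of these data known, and the rows of the hairpins were then taken by name. Members with a mean of at least 1000 CPM and those called in a comparison are given by library, the others by range, and the 5 miRNAs most like the summed cluster were named by Spearman correlation. Values of rno-miR-880-3p and rno-miR-463-5p beyond this rule, and the arm shares, were chosen after they had been seen. Gene order and sequences are from RefSeq (GRCr8), whose coordinates were not used because the files are on Rnor_6.0.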

Additional observations from a re-analysis of the deposited data

Results flagged for a closer look

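In all 60 sets, each a tested member or the summed cluster share in 1 group, were checked for a library standing apart. Of these, 3 had a highest or lowest library with an unusually large gap to the next. Chance flags about 1 in 20 such sets, which is 3 of 60. rno-miR-871-3p was at 10.14 log2 CPM in library N of F0_MOR, with the next library at 9.48. rno-miR-465-3p was at 7.26 log2 CPM in library K of F0_ABS-SAL, with the next at 6.49, and at 5.32 in library Q of F0_ABS-MOR, with the next at 6.43. Library Q also had the highest 5p share of miR-465, a value that is computed in part from the same 3p count.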

How the results depend on the processing

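No paired analysis was possible because the columns of the matrix carry letters and no replicate numbers, so a fit with a replicate block could not be made. In both comparisons of morphine with saline and in the interaction 0 members were called under every alternative run and in all 25 single-library omissions. In F0_ABS-SAL vs F0_SAL the 2 called members became 4 with DESeq2, with DESeq2 size factors or without libraries O, V and W, 1 with limma-voom or with at least 10 counts in every library, and 0 with total miRNA counts. Scaled to rno-miR-34c-5p there were 2 again, in the reverse direction, beside 151 of all 317 tested miRNAs called higher. Over all 317 miRNAs, 34 were called lower in the main fit, 42 with DESeq2 size factors and 1 with total miRNA counts. Without libraries O, V and W, 32 of the miRNAs tested in that fit were called lower. Single-library omissions gave 1 to 5 called members. Counts over all miRNAs for the omissions, DESeq2, limma-voom and the filter of 10 counts are not given here. In F0_ABS-MOR vs F0_MOR the count of called members went from 0 to 1 with total miRNA counts, with TMM over miRNAs and ncRNAs joined and scaled to rno-miR-34c-5p. It did so too with at least 10 counts in every library, with only the 2 groups in the model, and without libraries O, V and W. Of all 317 tested miRNAs, 35 were called higher in the main fit, 57 with total miRNA counts, 56 with the joined TMM and 81 scaled to rno-miR-34c-5p. Without libraries O, V and W 42 of the miRNAs tested in that fit were called higher. Single-library omissions gave 0 to 1 called members.

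Scaled to rno-miR-34c-5p, log2 fold changes of F0_MOR vs F0_SAL turned to 0.11 (rno-miR-741-3p), 0.045 (rno-miR-743b-3p), 0.012 (rno-miR-881-3p), 0.078 (rno-miR-743a-3p) and 0.066 (rno-miR-743a-5p). Those of F0_ABS-SAL vs F0_SAL turned to 0.13 (rno-miR-741-3p), 0.083 (rno-miR-743b-3p), 0.45 (rno-miR-881-3p), 0.13 (rno-miR-743a-3p), 0.25 (rno-miR-743a-5p) and 0.57 (rno-miR-880-3p). Those of F0_ABS-MOR vs F0_MOR turned to 0.26 (rno-miR-741-3p), 0.20 (rno-miR-743b-3p), 0.31 (rno-miR-743b-5p), 0.20 (rno-miR-743a-3p) and 0.48 (rno-miR-743a-5p). With total miRNA counts rno-miR-881-3p and rno-miR-880-3p turned to 0.091 and 0.22 in F0_ABS-SAL vs F0_SAL, and rno-miR-743a-5p to 0.090 in F0_ABS-MOR vs F0_MOR. In these 2 scalings rno-miR-34c-5p or the total counts as fixed, and why the values turned was not tested. In F0_ABS-MOR vs F0_ABS-SAL limma-voom gave -0.0092 (rno-miR-741-3p), -0.081 (rno-miR-743b-3p), -0.059 (rno-miR-743b-5p), -0.048 (rno-miR-881-3p) and -0.051 (rno-miR-743a-5p), and rno-miR-743b-3p was also at -0.034 with the joined TMM, -0.0016 with no filter and -0.0090 with only the 2 groups. limma-voom gave -0.027 for rno-miR-881-3p in F0_ABS-MOR vs F0_MOR. Single-library omissions turned 5 members of F0_ABS-MOR vs F0_ABS-SAL across 0, with ranges of -0.033 to 0.30 (rno-miR-741-3p), -0.044 to 0.21 (rno-miR-743a-3p), -0.017 to 0.27 (rno-miR-743a-5p), -0.12 to 0.14 (rno-miR-743b-3p) and -0.023 to 0.25 (rno-miR-743b-5p). The cause was not tested.

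The cluster's mean share became 1.22%, 1.18%, 0.901% and 1.03% (F0_SAL, F0_MOR, F0_ABS-SAL, F0_ABS-MOR) of miRNA and ncRNA counts together, and 5.97%, 5.42%, 4.63% and 4.92% of miRNA counts without rno-miR-34c-5p. Single-library omissions kept it within 3.22% to 3.58%, 3.15% to 3.44%, 2.77% to 3.21% and 3.07% to 3.43%. The rarest members, rno-miR-741-5p and rno-miR-880-5p, did not pass edgeR's filter on low counts, and no value is given for them.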
